A study of Mus musculus with 15 samples.

Results

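The genes described here are 10 components of the major histocompatibility complex (MHC) class I presentation pathway: the heavy chains H2-K1 and H2-D1, their light chain B2m, the peptide transporter subunits Tap1 and Tap2, the loading factor Tapbp, the trimming peptidase Erap1, the immunoproteasome subunits Psmb8 and Psmb9, and the transcriptional regulator Nlrc5. They were chosen by name and matched from NCBI gene identifier to mouse symbol. All 10 were among the 36528 genes listed and all 10 were among the 17282 genes with enough counts to be tested. The RNA came from basal cell carcinoma nests cut by laser from frozen mouse skin, and the libraries were made from polyadenylated RNA. All 3 groups carried K14Cre-ER, Ptch1fl/fl, p53fl/fl and Lgr5GFP. These are an inducible Cre recombinase driven by the keratin 14 promoter, floxed alleles of the Hedgehog receptor gene Ptch1 and of p53, and a GFP allele at Lgr5. The sample source text leaves Lgr5GFP out, while the genotype label gives it for every library. Of the 15 libraries, 5 came from nests after 28 days of vismodegib, which inhibits the Hedgehog signal transducer Smoothened, 5 from untreated nests labelled Ki67-positive and 5 from untreated nests labelled Ki67-negative. The vismodegib nests carry no Ki67 label, and the sources used here give no age. Because Cre acts only where keratin 14 is or was expressed, the model deletes both genes in keratinocytes and not in the immune or stromal cells of the skin.

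Class I molecules display peptides from proteins made inside a cell to CD8 T cells. Proteasomes cut the proteins, the TAP transporter carries the peptides into the endoplasmic reticulum, Erap1 trims them, and tapasin (Tapbp) holds empty class I molecules at TAP while a peptide binds. Nlrc5 has no DNA-binding domain of its own and acts through RFX, CREB/ATF and NF-Y factors bound to a conserved promoter module, and interferon gamma and NF-kappa B are known to raise many genes of the pathway. Keratinocytes express class I, and reduced class I has been described in many carcinomas.

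Of the 10 genes, 7 lie on chromosome 17, all within the MHC (coordinates from the RefSeq annotation of GRCm38.p6). In order along the chromosome these are Tapbp at chr17:33919478-33929290, H2-K1 at chr17:33996012-34000619, Psmb9 at chr17:34182030-34187330, Tap1 at chr17:34187556-34197225, Psmb8 at chr17:34198195-34201454, Tap2 at chr17:34204479-34216321 and H2-D1 at chr17:35263094-35267497. The other 3 lie at chr2:122147687-122153082 (B2m), chr8:94434335-94527272 (Nlrc5) and chr13:74639573-74693205 (Erap1). All are protein-coding genes, and counts were made over whole gene models.

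The promoter stretches below are shown because H2-K1, H2-D1 and B2m, the 3 most abundant members, also had the same sequence arrangement upstream. Each is read on the gene's own strand from RefSeq GRCm38.p6, and capitals mark an X2-type element TGACG and, after 20 bases, an inverted CCAAT box ATTGG:
B2m: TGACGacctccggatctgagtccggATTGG
H2-K1: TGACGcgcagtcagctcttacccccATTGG
H2-D1: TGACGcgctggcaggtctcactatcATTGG

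They lie at chr2:122147609-122147638 on the plus strand for B2m, at chr17:34000359-34000388 on the minus strand for H2-K1, and at chr17:35262993-35263022 on the plus strand for H2-D1. Relative to the RefSeq start used for the window, they span positions -78 to -49 for B2m, -41 to -12 for H2-K1 and -101 to -72 for H2-D1. The H2-K1 stretch is inside the RefSeq span of the gene but in no GENCODE M21 exon, and the H2-D1 stretch falls in the first exon of a longer GENCODE M21 transcript of H2-D1. A RefSeq promoter window of 300 bases (250 before and 50 after the start) was present for 8 of the 10 members, not for Tap2 or Nlrc5. The spacing of 20 bases was chosen after seeing these matches, and 31 of 32851 windows (0.0944%) hold it, among them that of the class I-like gene H2-M3.

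Both heavy-chain genes also held a kappa B-type match (GGGNNTTCC, searched on both strands as were all motifs), marked here by capitals in stretches that are alike outside the match as well:
H2-K1: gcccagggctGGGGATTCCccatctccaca
H2-D1: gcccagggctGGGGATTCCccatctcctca
B2m: ataagaacatGAAACTGAAaatgggaaagt

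The third line shows the match of the B2m window to the core of an interferon-stimulated response element (GAAANNGAA), in capitals, at chr2:122147538-122147567. The kappa B stretches lie at chr17:34000439-34000468 and chr17:35262913-35262942. GGGNNTTCC occurs in 5.82% of the 32851 windows and GAAANNGAA in 8.56% (here in B2m and Erap1). CCAAT occurs in 37.4% of windows and in those of H2-K1, H2-D1, B2m, Tap1, Tapbp and Psmb9. TGACG occurs in 20.8% and in those of H2-K1, H2-D1, B2m, Tap1 and Psmb9. Such matches describe letters only, and no binding was measured.

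Libraries held 4887381 to 10328822 counts. The labels tie no library to an animal, so nests of a group may share animals. In that case the p-values of the vismodegib comparisons are too small, and part of the spread among libraries may be technical. Both untreated groups may also share animals with each other, a pairing that could not be modelled, so the error in p-values of their contrast has no known direction. Xist exceeded Ddx3y, genes of the X and Y chromosomes, in vismodegib libraries 1 to 3 and in library 5 of each untreated group. The groups were thus not balanced in this respect. The Ki67-negative libraries have later accession numbers than the others, and a batch that coincides with them, if there was one, cannot be told apart from the group. The 11 tumour and keratinocyte markers, such as Krt14, Krt5 and Epcam, were detected in every group and summed to 14000 to 17500 CPM (counts scaled to a common library total) after vismodegib and 10100 to 13100 CPM in untreated nests. The markers were split. Against Ki67-positive nests 4 were higher (Krt14, Krt5, Krt15 and Cdh1) and 5 lower (Krt17, Cdh3, Sox9, Ptch1 and Gli1). Against Ki67-negative nests 4 were higher and 4 lower. The Hedgehog target Gli1 averaged 75.6 CPM in treated nests, and 339.7 and 384.6 CPM in Ki67-positive and Ki67-negative nests. Mki67 averaged 683.0 CPM after vismodegib, 775.7 CPM in Ki67-positive and 360.8 CPM in Ki67-negative nests. Ki67-negative library 5 stood apart, with 19669 genes detected against 21653 to 23322 in the other 14 libraries. Without it, the counts of members called against Ki67-negative nests stayed at 5 higher and 1 lower, and its larger effects are given beside the gene or list.

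After vismodegib, transcripts of the antigen-presenting molecule's chains were higher. H2-K1, H2-D1 and B2m each rose 1.7-fold to 1.98-fold against both untreated groups, and the trimming peptidase Erap1 rose 1.71-fold and 1.55-fold. Transcripts of the transporter were not higher: Tap2 fell to 0.527 of its level in Ki67-positive and 0.351 of its level in Ki67-negative nests, and neither Tap1 nor the regulator Nlrc5 passed the test in either comparison. Against Ki67-positive nests, 5 of the 10 members were higher and 1 was lower at an adjusted p under 0.05 (edgeR quasi-likelihood F test over all 15 libraries, two-sided, Benjamini-Hochberg over 17282 genes), where 12.6% of all genes tested were higher and 13.4% lower. Against Ki67-negative nests the counts were again 5 higher and 1 lower, where 15.4% of all genes were higher and 16.5% lower. The members' median log2 difference was 0.58 and 0.56 in these comparisons, and the median over all genes tested was -0.02 and -0.03. Both comparisons use the same 5 vismodegib libraries and are not independent of each other.

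Groups that do not overlap, with all 5 libraries of a group on the same side of all 5 of the other, were counted as well. Against Ki67-positive nests, 4 members lay wholly higher after vismodegib (H2-K1, B2m, Tapbp and Erap1) and 0 wholly lower, where 10.2% and 10.1% of all genes did. Against Ki67-negative nests, 3 members lay wholly higher (H2-K1, B2m and Psmb9) and Tap2 lay wholly lower, where 10.4% and 10.2% of all genes did. Because the nests are mixed tissue, more cells of a type and more RNA per cell cannot be told apart in any of these values.

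**Figure D1:**
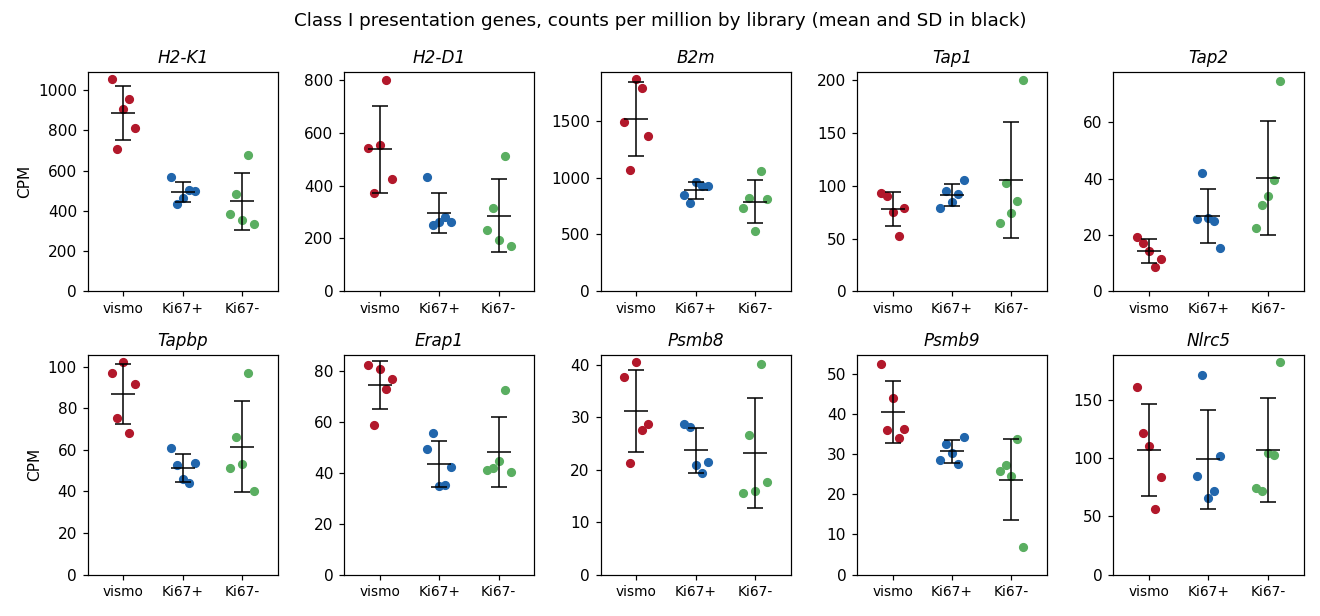
CPM (vertical axes, each from 0) of the 10 class I presentation genes in the 15 libraries, as points by group, with the mean and SD in black (vismo, vismodegib; Ki67+ and Ki67-, untreated nests). H2-K1 and B2m have all 5 vismodegib libraries above all 10 untreated ones, and Ki67-negative library 5 is the extreme point for Tap1 (201 CPM), Tap2 (74.6 CPM) and Psmb9 (6.9 CPM).

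H2-K1, a classical heavy chain that binds the peptide, was present at 1054, 709, 905, 959 and 812 CPM in vismodegib libraries 1 to 5. Ki67-positive nests had 569, 433, 463.5, 503 and 496.5 CPM, and Ki67-negative nests 382, 483, 355, 680.2 and 336 CPM. The lowest vismodegib library exceeded the highest untreated library. Means were 887.7 ± 132.9 CPM for treated nests, 493.0 ± 50.8 CPM for Ki67-positive and 447.3 ± 141.9 CPM in Ki67-negative nests (SD, n = 5 each). The log2 difference was 0.85 (SE 0.172) against Ki67-positive nests and 0.99 (SE 0.172) against Ki67-negative nests, with edgeR adjusted p of 0.00124 and 0.000296. H2-K1 kept both calls in all 22 other settings of the fit, with adjusted p between 5.24e-05 and 0.00436 against Ki67-positive and between 1.95e-06 and 0.0017 against Ki67-negative nests.

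H2-D1 is the other classical heavy chain. Its levels were 542, 373, 555, 799 and 424 CPM in treated nests, 432, 251, 263.5, 279.9 and 263 CPM in Ki67-positive nests, and 233, 317, 196, 512 and 173 CPM in Ki67-negative nests. Ki67-positive library 1 and Ki67-negative library 4 reached into the range of the vismodegib libraries, so the groups overlapped. H2-D1 was higher by 0.86 on the log2 scale (SE 0.274, edgeR adjusted p = 0.0292) against Ki67-positive nests and by 0.91 (SE 0.275, edgeR adjusted p = 0.018) against Ki67-negative nests. These calls were less firm than those for H2-K1. The first was lost without the filter on low counts (0.0632), without vismodegib library 3 (0.0537) or 4 (0.0817), and without Ki67-positive library 2 (0.0708), 3 (0.064), 4 (0.0616) or 5 (0.0624), all edgeR adjusted p. The second was lost without vismodegib library 4 (edgeR adjusted p = 0.0525) and was 0.78 on the log2 scale without Ki67-negative library 5 (edgeR adjusted p = 0.0452).

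The heavy chains belong to a family of close copies, which bears on reads counted only where they align uniquely. In GENCODE M21 transcripts, 13.9% of all 50-base stretches of H2-D1 and 6.87% of those of H2-K1 also occurred in another gene, chiefly in each other, H2-Q1 and, for H2-D1, H2-Q7 and H2-Q6. At 75 bases the shares were 6.15% and 1.12%. Reads from the shared stretches are lost or may go to a copy, so the levels of both genes are uncertain to that extent. The sources used here give neither the read length nor the H2 haplotype of the mice, and alleles that differ from the reference would also lose reads.

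B2m, the light chain that every classical class I molecule needs to reach the surface, was the most abundant member. Vismodegib libraries held 1487, 1067, 1862.5, 1785 and 1361 CPM, Ki67-positive libraries 849, 777, 959, 923 and 929 CPM, and Ki67-negative libraries 729, 817.5, 527, 1059.7 and 812 CPM. As with H2-K1, every vismodegib library lay above every untreated one, although vismodegib library 2 did so narrowly over Ki67-negative library 4. B2m rose by 0.77 on the log2 scale (SE 0.17, edgeR adjusted p = 0.00242) against Ki67-positive and by 0.94 (SE 0.17, edgeR adjusted p = 0.000423) against Ki67-negative nests, and kept both calls in all 22 other settings. No stretch of 50 bases of B2m occurred in another gene.

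The balance of light and heavy chains was compared within libraries. The log2 ratio of B2m to the sum of H2-K1 and H2-D1 in CPM was 0.08 ± 0.18 after vismodegib, 0.17 ± 0.24 in Ki67-positive and 0.14 ± 0.33 in Ki67-negative nests (SD, n = 5 each). The differences of -0.10 and -0.06 for vismodegib had exact permutation p of 0.484 and 0.738 (two-sided, adjusted p = 0.726 and 0.889 over 15 ratio tests). With 5 libraries against 5, the smallest exact p is 0.00794, which alone among 15 tests gives an adjusted p of 0.119, so no single ratio could have passed the threshold by itself.

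Tap1 and Tap2 form the transporter that carries peptides into the endoplasmic reticulum. Tap2 was at 19.3, 17.2, 14.2, 8.8 and 11.4 CPM in vismodegib libraries, 25.6, 42.1, 26, 24.8 and 15.4 CPM in Ki67-positive libraries, and 22.4, 30.6, 33.7, 39.6 and 74.6 CPM in Ki67-negative libraries. All vismodegib libraries lay below all Ki67-negative ones, and Ki67-positive library 5 lay within the vismodegib range. Tap2 fell by 0.92 on the log2 scale (SE 0.315, edgeR adjusted p = 0.0373) against Ki67-positive nests and by 1.51 (SE 0.317, edgeR adjusted p = 0.00149) against Ki67-negative nests. The first call was lost without vismodegib library 3 (0.0696), 4 (0.0941) or 5 (0.0862) and without Ki67-positive library 1 (0.0523), 2 (0.129), 3 (0.0564) or 4 (0.0542), all edgeR adjusted p. The second was kept in all 22 other settings, and was -1.16 without Ki67-negative library 5 (edgeR adjusted p = 0.00435). These are low levels, 72 to 143 counts per library after vismodegib and 76 to 499 in untreated nests.

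Tap1 did not pass the test in either comparison. Vismodegib libraries held 93.3, 90.3, 74.8, 52.8 and 78.8 CPM, Ki67-positive libraries 78.9, 94.9, 84.2, 92.0 and 105.6 CPM, and Ki67-negative libraries 65.0, 103.1, 74.5, 85.9 and 200.6 CPM. The log2 difference was -0.22 (95% interval -0.71 to 0.26, edgeR adjusted p = 0.546) against Ki67-positive nests and -0.44 (-0.92 to 0.04, edgeR adjusted p = 0.182) against Ki67-negative nests. Without Ki67-negative library 5 the latter was -0.07. With a term for libraries in which Xist exceeded Ddx3y, genes of the X and Y chromosomes (vismodegib libraries 1 to 3, Ki67-positive library 5 and Ki67-negative library 5), the difference from Ki67-negative nests passed (edgeR adjusted p = 0.019).

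Within a library, the log2 ratio of Tap1 to Tap2 was 2.28, 2.39, 2.40, 2.59 and 2.79 after vismodegib. It was 1.62, 1.17, 1.69, 1.89 and 2.78 in Ki67-positive nests and 1.54, 1.75, 1.14, 1.12 and 1.43 in Ki67-negative nests. The vismodegib and Ki67-negative libraries did not overlap, and Ki67-positive library 5 was exceeded only by vismodegib library 5. The difference was 1.09 against Ki67-negative nests (exact permutation p = 0.00794, the smallest possible, adjusted p = 0.119) and 0.66 against Ki67-positive nests (exact permutation p = 0.0476, adjusted p = 0.357). Neither passed after adjustment. Tap2 shares 18.5% of its exonic bases with the antisense genes Gm15821 and Gm20496, whose reads cannot be told apart from its own because the use of strand in counting is not given in the sources used here.

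Tapbp, the chaperone that bridges class I and TAP, was at 97.1, 75.4, 102.5, 68.2 and 91.8 CPM after vismodegib and at 60.8, 52.9, 46.0, 43.9 and 53.8 CPM in Ki67-positive nests, without overlap. It rose by 0.76 on the log2 scale (SE 0.2, edgeR adjusted p = 0.00888) and kept this call in all 22 other settings. In Ki67-negative nests Tapbp was at 51.1, 66.0, 53.1, 97.2 and 40.1 CPM, and library 4 alone of these lay within the vismodegib range. The difference of 0.50 (95% interval 0.11 to 0.89) against these nests missed the threshold with an edgeR adjusted p of 0.0634. It was 0.38 without Ki67-negative library 5 (edgeR adjusted p = 0.14). It passed without Ki67-negative library 4 (edgeR adjusted p = 0.00375), without vismodegib library 4 (0.0442) and with limma voom (0.0374). Of the exonic bases of Tapbp, 29.0% overlap Zbtb22 or the antisense gene Gm19412.

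Erap1, the endoplasmic reticulum peptidase that trims peptides to the length class I holds, was at 82.5, 59.1, 81.1, 73.0 and 77.1 CPM after vismodegib. Ki67-positive nests held 49.6, 55.8, 34.7, 35.2 and 42.5 CPM and Ki67-negative nests 41.3, 41.8, 44.8, 72.8 and 40.2 CPM. Apart from Ki67-negative library 4, which exceeded vismodegib library 2, all untreated libraries were lower than all vismodegib ones. Erap1 rose by 0.78 (SE 0.186, edgeR adjusted p = 0.00453) and by 0.63 (SE 0.186, edgeR adjusted p = 0.0151) on the log2 scale, and both calls held in all 22 other settings. Cast lies antisense to Erap1 over 11.5% of its exonic bases.

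Psmb8 and Psmb9 are catalytic subunits that replace Psmb5 and Psmb6 when immunoproteasomes form. Psmb9 was at 52.4, 35.9, 44.1, 34.0 and 36.3 CPM in treated nests, 28.6, 32.6, 30.4, 27.5 and 34.2 CPM in Ki67-positive nests and 25.7, 27.3, 24.6, 33.8 and 6.9 CPM in Ki67-negative nests. The vismodegib libraries lay just above the Ki67-negative ones and overlapped the Ki67-positive ones only at 34 CPM. Psmb9 was higher by 0.78 against Ki67-negative nests (SE 0.276, edgeR adjusted p = 0.0392), while the difference of 0.40 against Ki67-positive nests (95% interval -0.13 to 0.94) did not pass (edgeR adjusted p = 0.302). The call against Ki67-negative nests was lost with only these groups in the fit (0.0768), without vismodegib library 1 (0.0959), 3 (0.0763) or 5 (0.0509) and without Ki67-negative library 1 (0.0533) or 3 (0.0623), all edgeR adjusted p. Without Ki67-negative library 5, where Psmb9 was lowest, the difference was 0.54 and still passed (edgeR adjusted p = 0.0183).

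Psmb8 overlapped between all groups. It was at 37.8, 21.3, 40.5, 27.5 and 28.8 CPM in treated nests, 28.7, 28.1, 20.9, 19.4 and 21.4 CPM in Ki67-positive nests and 15.5, 26.6, 16, 40.2 and 17.7 CPM in Ki67-negative nests. Its log2 differences of 0.40 (95% interval -0.11 to 0.90) and 0.43 (-0.08 to 0.93) did not pass (edgeR adjusted p = 0.283 and 0.221). The latter passed without Ki67-negative library 4 (edgeR adjusted p = 0.0239) and was 0.34 without library 5 (edgeR adjusted p = 0.361). Against its constitutive counterpart Psmb6, Psmb9 had a log2 ratio of -0.59 ± 0.24 after vismodegib, -0.39 ± 0.54 in Ki67-positive and -0.82 ± 0.77 in Ki67-negative nests (SD, n = 5 each). For Psmb8 against Psmb5 the log2 ratios were 3.41 ± 0.93, 2.75 ± 0.44 and 3.32 ± 0.69. None of these ratio differences passed (exact permutation tests, adjusted p between 0.548 and 0.889). Psmb5 was counted only 7 to 60 times per library, which limits the ratio to Psmb8. The antisense gene Gm20496 covers 14.7% of the exonic bases of Psmb8, and the neighbours Psmb9 and Tap1 overlap each other over 5.79% and 3.87% of theirs.

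Nlrc5, the class I transactivator, had similar means in all groups, 106.7 ± 39.4 CPM after vismodegib, 99.1 ± 42.6 CPM for Ki67-positive and 107.0 ± 44.6 CPM in Ki67-negative nests (SD, n = 5 each). Its levels were 160.8, 121.9, 110.5, 56.5 and 83.8 CPM in treated nests, 84.6, 171.2, 66.1, 71.9 and 101.5 CPM in Ki67-positive nests and 74.5, 71.5, 104.0, 103.0 and 182.1 CPM in Ki67-negative nests. Each group thus held libraries at both ends of the range. The log2 difference was 0.11 (95% interval -0.51 to 0.72) against Ki67-positive and -0.01 (-0.62 to 0.61) against Ki67-negative nests, edgeR adjusted p of 0.837 and 0.993. Both intervals reach past 0.5 in either direction, so the data do not show that Nlrc5 was level. Without Ki67-negative library 5 the latter was 0.27 (edgeR adjusted p = 0.525).

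**Figure D2:**
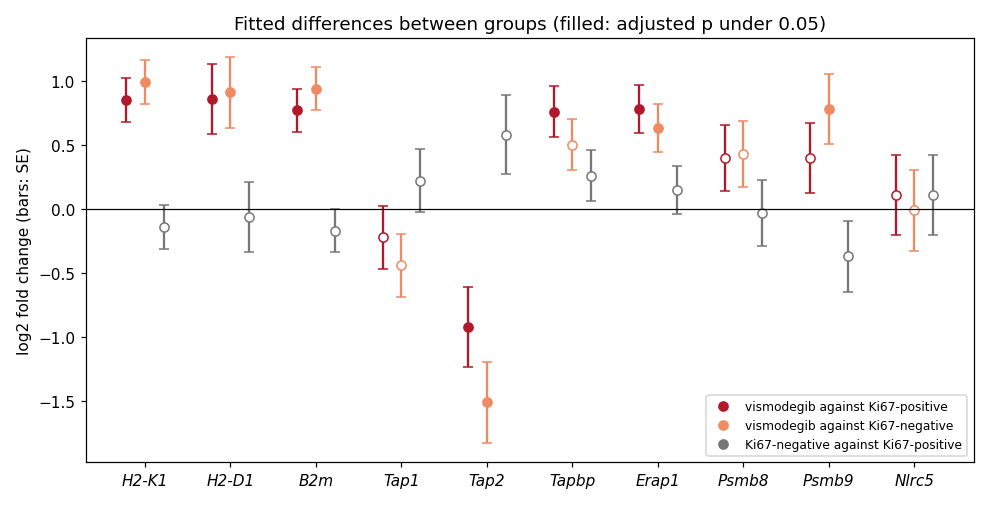
Fitted log2 difference (vertical axis, bars are standard errors) of each member in the 3 comparisons, filled where the edgeR adjusted p is under 0.05. The heavy chains, B2m and Erap1 lie above 0 in both vismodegib comparisons, Tap2 lies below 0 at -0.92 and -1.51, and no point of the comparison between untreated groups is filled.

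Between the untreated groups no member passed the test. The count was 0 of 10 with edgeR, DESeq2 and limma voom, 0 of 10 had an unadjusted p under 0.05 with edgeR, and all 10 overlapped between the groups. The comparison called few genes at all, 0.0% of the genes tested higher and 0.174% lower in Ki67-negative nests, and 0.33% and 0.845% lay wholly higher and wholly lower. Tap2 had the largest difference, 0.58 on the log2 scale (95% interval -0.02 to 1.19, edgeR adjusted p = 0.781), and Psmb9 the lowest, -0.37 (-0.91 to 0.17, edgeR adjusted p = 0.853). Both rested on Ki67-negative library 5: without it Tap2 was at 0.24 and Psmb9 at -0.13, and Tapbp, at 0.38, had the largest difference (edgeR adjusted p = 0.999 for each). For each gene this contrast is also the difference between its vismodegib comparisons, so the calls of Tapbp and Psmb9 in a single comparison were not shown to differ between them. For H2-K1 and B2m the intervals of -0.48 to 0.20 and -0.50 to 0.16 were narrower. A difference in these genes as large as the 0.85 and 0.77 seen between vismodegib and Ki67-positive nests lies outside them.

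Compared per length, on the deposited RPKM scale, the members formed 3 tiers in every group. After vismodegib B2m averaged 483 ± 106 RPKM, H2-K1 112 ± 17 and H2-D1 85.1 ± 27.1, and the remaining 7 genes 1.47 to 8.65 RPKM (SD, n = 5). H2-K1 and H2-D1 overlapped across libraries (88.7 to 132 and 58.5 to 128 RPKM), as did Tapbp, Tap1, Psmb9 and Psmb8. In Ki67-positive nests B2m averaged 286 ± 22.6 RPKM, H2-K1 62.6 ± 6.34 and H2-D1 47.4 ± 12, and in Ki67-negative nests 255 ± 59.6, 57.0 ± 17.4 and 45.7 ± 21.5. Tap1 ranked next in both untreated groups, at 8.55 and 10 RPKM, and Tapbp took that place after vismodegib, at 8.65 against 7.22 RPKM for Tap1. Tap2 was the least abundant member after vismodegib, at 1.47 ± 0.432 RPKM, against 2.81 ± 1.02 in Ki67-positive and 4.26 ± 2.19 in Ki67-negative nests.

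**Figure D3:**
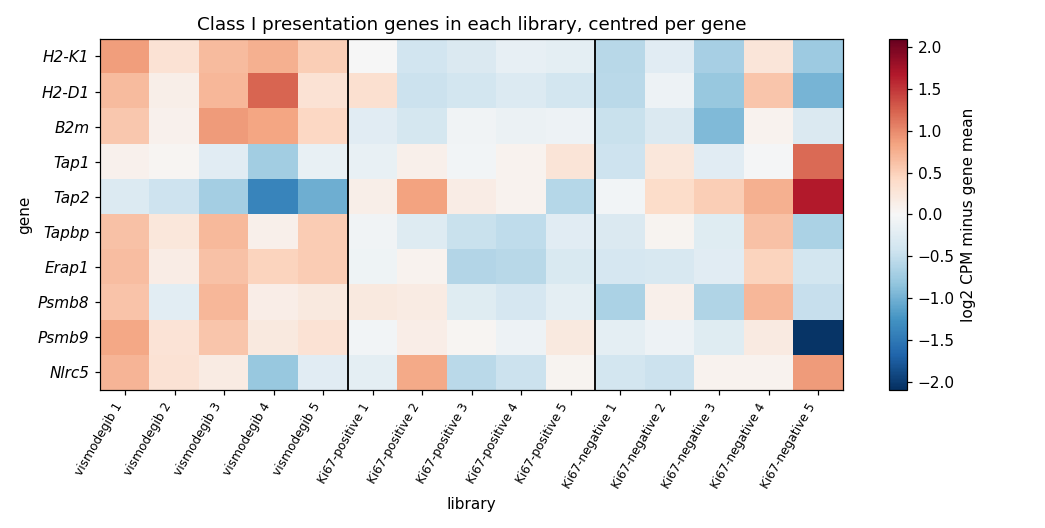
Log2 CPM of each member (rows) in each library (columns) minus the gene's mean over all 15 libraries, red above and blue below that mean. Vismodegib library 1 and Ki67-negative library 4 each lie above the mean in 9 of the 10 members. Tap2 lies below its mean and both heavy chains above theirs in every vismodegib library. The reverse holds in Ki67-positive libraries 2, 3 and 4 and in Ki67-negative libraries 2, 3 and 5.

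The members did not vary as a block. Averaged over the 10 genes, the centred log2 CPM was 0.53, 0.09, 0.41, 0.08 and 0.14 in vismodegib libraries, -0.01, 0.07, -0.25, -0.25 and -0.15 in Ki67-positive libraries and -0.40, -0.08, -0.34, 0.36 and -0.19 in Ki67-negative libraries. Ki67-negative library 4 had the third-highest average of all, with 9 of 10 members above their own mean, and Ki67-negative library 1 had 0 of 10. Vismodegib library 4 was split: H2-D1 was the highest of any library there and B2m and H2-K1 were the second-highest, while Tap1, Tap2 and Nlrc5 were the lowest of any library. Other H2 genes were also lowest there, such as H2-T23 (3.28 CPM), H2-T22 (3.65 CPM), H2-T24 (8.27 CPM), H2-Q6 (8.87 CPM) and H2-Q7 (6.68 CPM). So was the class II gene H2-Eb1 (3.52 CPM). Each of these lay below all untreated libraries, which was not so for H2-Q4 or H2-M3. Whether the H2 haplotype of this library differed was not tested. Ki67-negative library 5 showed the opposite split, with the highest Tap1, Tap2 and Nlrc5 of all 15 libraries and the lowest Psmb9, H2-K1 and H2-D1. The pooled SD within groups on the log2 scale was smallest for H2-K1 (0.285), B2m (0.291) and Erap1 (0.291) and largest for Nlrc5 (0.552), Psmb9 (0.543) and Tap2 (0.538).

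Outside the membership, the genes whose centred profile was nearest to the members' average over the 15 libraries were Psmd3, a proteasome regulatory subunit, at a root mean square distance of 0.143 on the log2 scale, then Pmpca (0.148), Nub1 (0.148), Sdc4 (0.149) and Abcc1 (0.154). The median distance over 10379 candidate genes was 0.448. The average flattens opposed members, and Tap2 itself lay at 0.873 from it.

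Markers of antigen-presenting and other immune cells were also higher after vismodegib. Of 11 tested markers of dendritic and Langerhans cells, 10 were higher against Ki67-positive and 8 against Ki67-negative nests, among them Cd207, H2-Aa and H2-Ab1. Zbtb46 was not called against Ki67-positive nests (-0.13, edgeR adjusted p = 0.777). With Ki67-negative library 5 left out, 8 of 11 were higher against Ki67-negative nests, and Itgax and Flt3 were not called there. The sum of the 12 listed is made up mainly of Cd74 and MHC class II genes and is not a count of cells. After vismodegib, Cd74 averaged 795.9 CPM and H2-Aa 367.7 CPM, against 34.8 CPM for Cd207 and 19.5 CPM for Itgax. The summed level of the 12 listed was 779 to 2470 CPM (median 2070) after vismodegib, 134 to 533 (median 244) in Ki67-positive and 174 to 501 (median 417) in Ki67-negative nests. In the same order of groups, T and NK cell markers summed to 38.7 to 114, 14.3 to 35.2 and 9.68 to 55.7 CPM, with 6 and 5 of 8 tested markers higher. General leukocyte markers summed to 151 to 325 CPM, 25.4 to 127 CPM and 40.3 to 253 CPM, with 4 and 3 of 7 higher. Without Ki67-negative library 5, 2 of 9 tested T and NK markers and 2 of 7 leukocyte markers were higher against Ki67-negative nests. Myeloid markers overlapped (110 to 330, 46.1 to 169 and 76.6 to 413 CPM), with 1 of 10 higher in each comparison and 1 of 10 lower against Ki67-negative nests. B cell markers were near 0, and Ms4a1 had no count in any library.

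**Figure D4:**
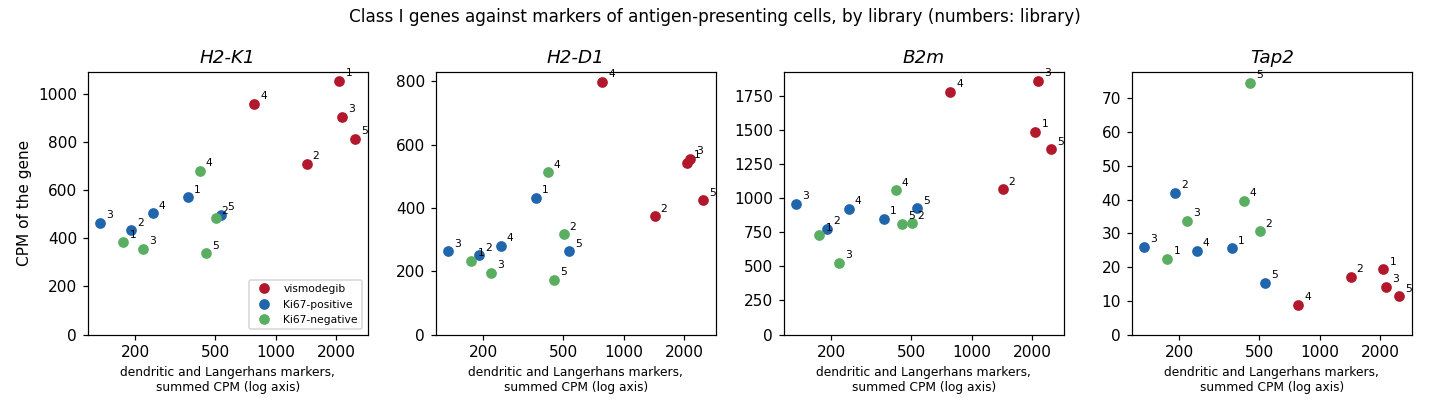
Level of H2-K1, H2-D1, B2m and Tap2 in CPM (vertical axes) against the summed CPM of 12 dendritic and Langerhans cell markers (horizontal log axes), each point a library with its number. Vismodegib library 4 has the lowest marker sum of its group (779 CPM) and the highest H2-D1 of all (799 CPM). The marker sum is made up mainly of Cd74 and MHC class II genes, among them H2-Eb1 (3.52 CPM in vismodegib library 4).

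Immune cells express class I at high levels, and their part in the rise of H2-K1, H2-D1 and B2m was not tested. Vismodegib library 4 had the lowest dendritic (779 CPM) and T and NK (38.7 CPM) sums of its group, and the highest myeloid sum (330 CPM), with H2-D1 at 799 CPM, H2-K1 at 959 CPM and B2m at 1785 CPM. Vismodegib library 5 had the highest dendritic and T and NK sums (2470 and 114 CPM) and a myeloid sum of 278 CPM, with H2-D1 at 424 CPM, H2-K1 at 812 CPM and B2m at 1361 CPM. The dendritic sums mainly follow Cd74 and MHC class II genes. Among these, H2-Eb1 was at 3.52 CPM in vismodegib library 4, against a group median of 186 CPM. Across the vismodegib libraries Cd207 was at 23.9 to 43.3 CPM and Itgax at 11.4 to 26.1 CPM, and neither was lowest in library 4. Vismodegib library 2 had the lowest myeloid sum (110 CPM) and the lowest H2-K1, H2-D1 and B2m of its group. In Ki67-positive nests, library 1 had the highest leukocyte sum (127 CPM) and the highest H2-K1 and H2-D1, while its B2m (849 CPM) was below the group mean of 887.2 CPM. Ki67-positive library 5 had a leukocyte sum of 114 CPM and the highest dendritic (533 CPM) and myeloid (169 CPM) sums of that group. Its H2-D1 was at 263 CPM, H2-K1 at 496.5 CPM and B2m at 929 CPM. Among all untreated nests, Ki67-negative library 4 had the highest leukocyte (253 CPM) and T and NK (55.7 CPM) sums, and also the highest H2-K1, H2-D1, B2m, Tapbp, Erap1 and Psmb8. Melanocyte markers moved the other way, with 4 of 5 lower against Ki67-positive and 3 of 5 against Ki67-negative nests. Of 6 fibroblast markers, 1 was lower in each comparison (Pdgfra), and 0 of 6 endothelial markers were called in either.

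Among the other chaperones that fold and load class I, 0 of 7 were called against Ki67-positive nests (median log2 difference 0.03). Against Ki67-negative nests, Canx, which folds new heavy chains, was higher by 0.41 (edgeR adjusted p = 0.0477, and 0.104 without library 5), and Tapbpl, a tapasin-related peptide editor, fell by 0.73 (edgeR adjusted p = 0.0146). Of 6 tested peptidases that act on peptides in the cytosol or endoplasmic reticulum, Lap3 alone was called, and it was lower in both comparisons. This leucine aminopeptidase averaged 115.2 ± 53.3 CPM after vismodegib, 354.1 ± 104.5 CPM in Ki67-positive and 346.2 ± 114.3 CPM in Ki67-negative nests (SD, n = 5 each). It fell by 1.62 and by 1.59 on the log2 scale (edgeR adjusted p = 0.000611 and 0.000648), with all vismodegib libraries below all untreated ones.

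Proteasome genes outside the membership were counted in separate lists of partners and of the constitutive core. Of 5 immunoproteasome and activator partners, Psme1, Psme2 and Pomp were higher in both comparisons. Psme1 and Psme2, the subunits of the PA28 activator that interferon gamma induces, were higher by 0.92 and 1.24 against Ki67-positive nests (edgeR adjusted p = 0.00242 and 0.00147) and by 0.76 and 1.22 against Ki67-negative nests (edgeR adjusted p = 0.00779 and 0.00148). Psme2 has a close copy, Psme2b, so its counts are uncertain. Pomp, an assembly factor, was higher by 0.49 and 0.61 (edgeR adjusted p = 0.0489 and 0.0137). Psme3, the nuclear activator subunit, fell by 0.59 against Ki67-negative nests (edgeR adjusted p = 0.00554) and was not called against Ki67-positive nests (-0.37, edgeR adjusted p = 0.0701, and 0.0224 with Ki67-negative library 5 left out of the fit). Psmb10, the remaining immunoproteasome catalytic subunit, was not called, at 10.4 ± 6.09 CPM after vismodegib and 5.62 ± 2.08 and 6.17 ± 2.76 CPM in the untreated groups (SD, n = 5 each).

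Of the 14 listed subunits of the constitutive core particle, 4 were higher against Ki67-positive nests (Psma6 by 0.78, Psmb7 by 0.84, Psmb1 by 0.67 and Psmb6 by 0.56 on the log2 scale) and 11 against Ki67-negative nests, with 0 lower in either. Without Ki67-negative library 5, 10 of 14 were higher against Ki67-negative nests. The 4 with the smallest adjusted p in the latter were Psma6 (1.11), Psma1 (0.88), Psmb1 (0.92) and Psma7 (0.72). The list medians were 0.33 and 0.72. Psmb5, the subunit that Psmb8 replaces, was not called in any comparison.

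Of 21 other class I and class I-like chains, 16 were tested, and most did not pass. H2-M2, a nonclassical chain, ranged from 15.4 to 57.5 CPM in treated nests, from 0 to 2.02 CPM in Ki67-positive nests and from 0.425 to 9.49 CPM in Ki67-negative nests. The fitted log2 differences were 4.94 and 3.82 (edgeR adjusted p = 0.000313 and 0.00127), and their size depends on how the low untreated counts are handled. Hfe, which regulates iron uptake, rose by 1.13 and 1.29 (edgeR adjusted p = 0.00858 and 0.0033), and Fcgrt, the neonatal Fc receptor, fell by 0.90 and by 1.19 (edgeR adjusted p = 0.0103 and 0.00127). Both pair with B2m. H2-M5 was higher by 3.34 against Ki67-positive nests (edgeR adjusted p = 0.0258) and was not called against Ki67-negative nests. The median over the 16 was 0.18 in both comparisons.

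Among 14 factors that bind or act at class I promoters, Rfx5, the DNA-binding subunit of the RFX complex through which Nlrc5 acts, was lower in both comparisons, by -0.59 and -0.58 on the log2 scale (edgeR adjusted p = 0.0125 and 0.0115). All vismodegib libraries lay below all untreated ones for Rfx5. Rfxank, another RFX subunit, was lower against Ki67-negative nests (-0.55, edgeR adjusted p = 0.0462), a call that was lost without library 5 (-0.37, edgeR adjusted p = 0.136). Irf1, Rela and Nfkb1 did not pass in either comparison.

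Of 14 tested interferon receptor and signalling genes, Ifngr1, the ligand-binding chain of the interferon gamma receptor, was higher in both comparisons. It averaged 67.6 ± 15.1 CPM after vismodegib, 22.7 ± 7.19 CPM in Ki67-positive and 26.6 ± 11.4 CPM in Ki67-negative nests (SD, n = 5 each), without overlap. The log2 differences were 1.57 and 1.34 (edgeR adjusted p = 0.00053 and 0.00171). Jak1, the kinase bound to the receptors, was higher by 0.37 against Ki67-positive nests (edgeR adjusted p = 0.0366). Against Ki67-negative nests Socs3, a feedback inhibitor of cytokine signalling, fell by 1.72 and the kinase Tyk2 by 0.69 (edgeR adjusted p = 0.00276 and 0.0225).

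Interferon response genes were higher against Ki67-positive nests for 6 of the 16 tested and lower for 0. The 4 with the smallest adjusted p were Igtp (1.53, edgeR adjusted p = 0.00294), Cxcl10 (2.11, 0.00918), Gbp2 (1.78, 0.0205) and Cxcl9 (1.91, 0.0222). Against Ki67-negative nests Cxcl10 alone passed (1.65, edgeR adjusted p = 0.0282). The list median was 0.97 in the first comparison and 0.26 in the second, and 0 of 16 were called between the untreated groups, where the median was 0.72. Ki67-negative library 5 moved these values: without it, 4 of 16 were higher against Ki67-negative nests with a median of 0.85, and the median between the untreated groups was 0.20. The 3 that passed only then were Gbp2, Gbp4 and Iigp1 (chosen after their values were seen). Cxcl9 and Cxcl10 are chemokines that attract T cells, and Igtp and Gbp2 are GTPases induced by interferon gamma. Against Ki67-positive and Ki67-negative nests, the dendritic and Langerhans marker list had medians of 2.42 and 2.28. The medians were 1.97 and 1.98 for T and NK markers, 1.66 and 1.28 for general leukocyte markers and 0.73 and -0.14 for myeloid markers. The part of immune cells in the interferon response values was not tested. Of the ligands of NK and T cell receptors, 4 of 7 were tested, and H60c, a ligand of NKG2D, was higher by 2.06 and 2.57 (edgeR adjusted p = 0.000927 and 0.000149).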

How the data were processed

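Polyadenylated RNA of laser-captured tumour nests was sequenced in 15 libraries, 5 per group. The authors aligned reads with GSNAP to GRCm38, per the submitters' processing notes. The sources used here give no version, annotation release or strand setting. The deposited counts hold, per the file headers, reads that aligned uniquely to a gene model, and the deposited RPKM values hold, per the file headers, RPKM corrected by size factors. RPKM was used only to compare levels between genes. Each was proportional to its count within a gene and a library (largest deviation 0.0% over 11415 genes).

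Libraries were numbered by accession within a group, for want of numbers in the labels, and these pair nothing. Of 36528 identifiers, 31049 (85.0%) matched a symbol in RefSeq GRCm38.p6, and the rest held 2.26% to 3.93% of counts. No libraries were duplicates (chi-square per degree of freedom 13.2 to 43.3 within groups). Counts were scaled by TMM (factors 0.937 to 1.05) and kept by filterByExpr (minimum count 10, minimum total 15). The fit of edgeR 4.0.16 in R 4.3.3 used all 15 libraries, 12 residual degrees of freedom, no covariate and robust dispersion (common biological coefficient of variation 0.348). The script was tested on simulated data. CPM uses TMM-adjusted totals, and intervals of fold changes are 95%, computed as the estimate with its standard error. Ratios were compared by exact permutation over 252 arrangements.

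Members and gene lists were chosen with earlier results of these data known. Named were all members, the partner subunits Psmb5, Psmb6, Psmb7 and Psmb10, up to 4 called genes per pathway list by adjusted p, and the 5 genes nearest to the members' mean profile with an average log2 CPM of at least 3. Alternatives were DESeq2's size factors, no filter, a filter at 1 CPM, a term for libraries with Xist above Ddx3y, only 2 groups in the fit, each library left out, limma 3.58.1 voom and DESeq2 1.42.0. Sequences are from RefSeq, and overlaps and shared stretches from GENCODE M21. A listed factor and its motif are not reported here.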

Additional observations from a re-analysis of the deposited data

Results flagged for a closer look

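A library was singled out where its gap to the nearest of the other 4 libraries of its group, divided by the group's range, exceeded 0.71. This held for 5 of 45 groups of values, and chance gives about 1 in 20 for a single group. The groups share genes and libraries, so the flags are not independent and their number was not tested. H2-D1 was high in Ki67-positive library 1, at a log2 CPM of 8.76 where the other libraries of that group had 7.97 to 8.13. Psmb9 was low in Ki67-negative library 5, at 2.84 against 4.64 to 5.09. Erap1 was high in Ki67-negative library 4, at 6.19 against 5.34 to 5.50. The log2 ratio of Psmb8 to Psmb5 was 5.01 in vismodegib library 4, against 2.77 to 3.39 in the others, with as few as 7 counts of Psmb5. The log2 ratio of Psmb9 to Psmb6 was -2.15 in Ki67-negative library 5, against -0.72 to -0.18 in the others.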

How the results depend on the processing

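No paired analysis was possible because the labels give no replicate numbers. H2-K1, B2m and Erap1 kept their calls against both untreated groups in all 22 alternatives, as did Tapbp against Ki67-positive and Tap2 against Ki67-negative nests. No called direction reversed. The number of members called was 4 to 6 against Ki67-positive nests. Against Ki67-negative nests it was 5 to 8 (7 higher and 1 lower without Ki67-negative library 4). The calls of H2-D1, Psmb9 and Tap2 that were lost stand beside each gene above; the cause was not tested. Genes called between the untreated groups numbered 30, and 0 with only these groups in the fit, 15 with limma voom, 86 with DESeq2 and 0 to 43 with a library left out. No ratio passed in any alternative, but no single ratio could have passed by itself. For Tap1 to Tap2 against Ki67-negative nests the adjusted p of the exact permutation test was 0.119 in all 11 alternatives. Depth limits genes with few counts, such as Psmb5, H2-M2 and H2-M5.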
